A study of Homo sapiens with 6 samples.

Results

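The genes described here encode 47 nucleolar factors that build ribosomes, taken from a list of gene symbols and not from any measured value. The libraries were matched to 37192 genes by transcript identifier, and 45 of the 47 were among them. BOP1 and EMG1 were not analysed here because their counted transcripts had no match in the annotation used. The study measured untreated K562 cells, a human chronic myelogenous leukemia line grown in RPMI-1640 medium with serum, and the labels name the same cell source for all libraries. There were 4 RNA-seq libraries of total RNA depleted of ribosomal RNA (rRNA) and 2 PRO-seq libraries, which sequence nascent RNA at engaged RNA polymerases. There was 1 cell line, 1 condition and no treatment, so the comparison is between the 2 assays and among genes, and the spread between libraries does not cover differences between separately grown cultures. In bulk RNA such as this, a lower level in every cell and expression in fewer cells cannot be told apart.

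Ribosomes are made in the nucleolus. RNA polymerase I copies the ribosomal DNA into a long precursor, small nucleolar ribonucleoproteins (snoRNPs) guide its chemical modification, and the small subunit (SSU) processome folds and cuts the part that becomes the 40S subunit. Other factors then assemble, proofread and export the 40S and 60S subunits. These factors are among the most abundant nucleolar proteins of growing cells, and many of their genes are known targets of the transcription factor MYC.

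Counts on transcription units (TUs) ranged from 5732780 to 9002746 in RNA-seq and were 6993816 and 7245632 in PRO-seq. The markers checked for the cell line were found in RNA-seq, for example GATA1 at 155 TPM, KLF1 at 187 TPM and HBG1 at 1828 TPM, where TPM is read density per transcript length scaled to the same total in each library. Of the 5 markers of other cell types with a counted transcript, 4 (CD3E, MS4A1, ALB and COL1A1) lay at or below 0.483 TPM in RNA-seq, as did CDKN2A, which this line has lost, and EPCAM was at 119.8 TPM. A relative half-life, the ratio of a TU's steady-state level to its nascent level in TPM, was computed where the nascent level exceeded 10 TPM and the steady-state level exceeded 1 TPM. It is given on the log2 scale with the median mRNA at 0, has no unit of time, and stands for RNA stability only as far as PRO-seq density follows the rate of RNA production. PRO-seq density also depends on the speed of the polymerase, whose part in the values below was not tested.

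Of the 47 genes, 42 passed both thresholds. Their mRNAs mostly had more steady-state RNA per unit of nascent transcription than the median mRNA. In edgeR's quasi-likelihood test over all 9931 TUs, 39 of the 42 lay above the median mRNA at an adjusted p under 0.05, 2 lay below it (NOB1 and BYSL) and 1 had no call (TSR1). Over all TUs tested, 40.4% were called above and 50% below, and over the 8733 mRNAs tested 45.4% were above and 44.9% below. The median log2 relative half-life of the 42 was 1.27. Their SD was 0.988, against 1.68 over all mRNAs. A total of 26 of the 42 were above 1.08, the upper quartile of the mRNAs, and 1 was below the lower quartile of -1.06. Against a difference of 2-fold rather than none, 26 of the 42 were called above and 1 below, where 21.5% and 29.2% of all TUs were. Without TPM thresholds and with at least 1 summed count in each assay, all 45 matched genes entered the test. Of these, 44 were called above and 1 below, where 32.1% and 36.8% of all TUs were, and the median was 1.96. The 45 include NOP2, with 1 PRO-seq count, and EBNA1BP2 and WDR12, whose counted transcripts hold 16.7% and 3.36% of the canonical exon bases. Their calls are not read as results about these genes. The median mRNA set to 0 was taken over the mRNAs of each setting, so the reference differs with and without thresholds. With at least 10 summed counts, 42 of 44 were above and 1 below, where 38.9% and 48% of all TUs were.

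**Figure D1:**
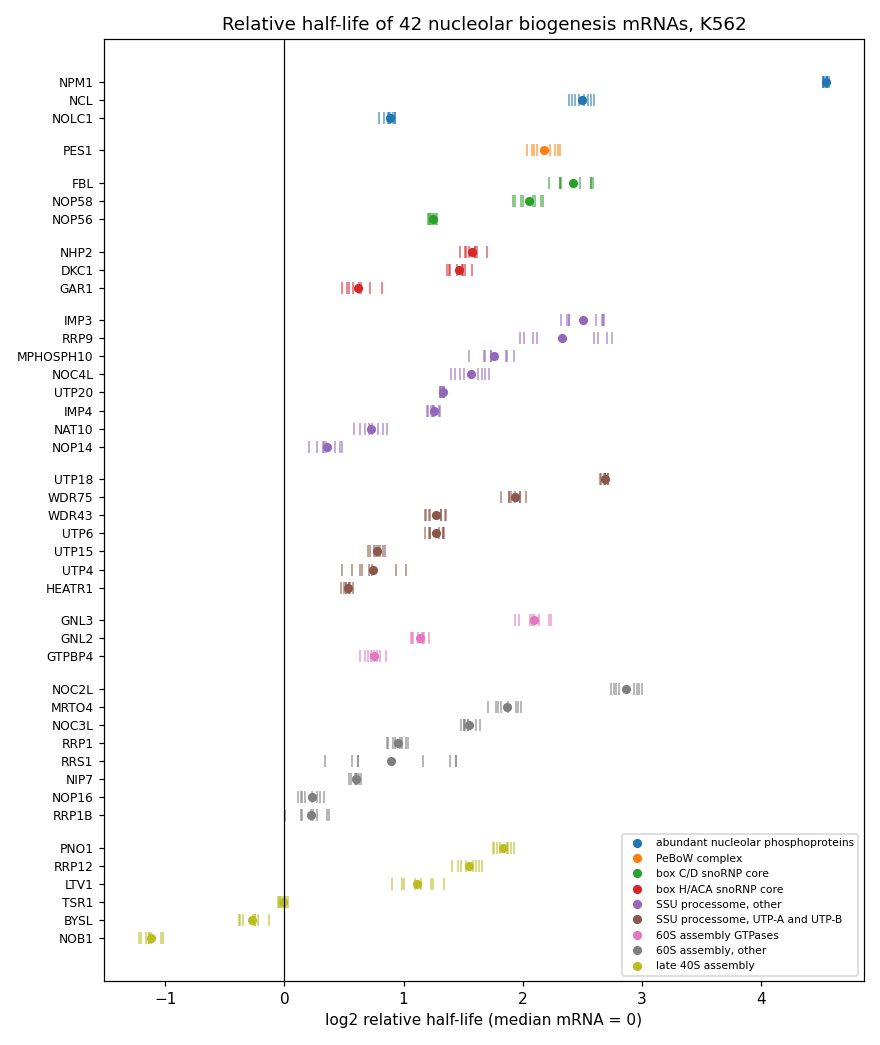
Log2 relative half-life (horizontal axis, median mRNA at 0) of the 42 genes past the thresholds, grouped by role. Dots are the edgeR estimates and ticks the 8 pairings of a single library from each assay. All 8 ticks lie right of 0 for 39 genes and left of 0 for NOB1 and BYSL. The same count over all TUs was not made.

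The strand setting of the counting is unknown, and 17 of the 42 genes share counted bases with a counted TU of the opposite strand. The shared part was 100% of the PRO-seq span for PNO1, NOP16 and NIP7, 93.2% for NOP14 and 29.5% for UTP6. In RNA-seq it was 71.9% of the exon bases for IMP3, 48.2% for NHP2, 27.0% for TSR1 and 25% for NOB1. Of the 22 genes with no overlap on either strand, 21 were called above the median mRNA and 1 below, with a median of 1.39. The part of opposite-strand reads in the values of single genes was not tested.

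The replicate spread was small beside the spread among the genes. Taking a single library from each assay (8 combinations), values were above 0 in every combination for 39 genes and below 0 in every combination for 2. The combinations reuse the same 2 PRO-seq libraries, and the same count over all TUs was not made. This count therefore describes the replicate spread and does not set these genes apart from other TUs. The coefficient of variation of RNA-seq TPM over the 4 libraries had a median of 3.24% and a highest value of 13.9%. The order of neighbouring genes was less sure. Of the 41 pairs of neighbours in the order of half-life, 5 had combinations that did not overlap. These were NOB1 with BYSL, BYSL with TSR1, UTP20 with DKC1, UTP18 with NOC2L, and NOC2L with NPM1. The other 36 pairs overlapped.

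High levels were shared by both assays. Among the 14965 mRNAs with counts in both assays, 41 of the 42 genes were above the upper quartile of RNA-seq TPM and 34 were above that of PRO-seq TPM. Of all 8733 mRNAs past the thresholds, 3643 and 3705 were. The median percentile of the 42 was 93.0 in RNA-seq and 91.1 in PRO-seq. RNA-seq TPM ranged over 286-fold among the 42, from 19.7 for UTP4 to 5639 for NPM1. PRO-seq TPM ranged over 24.7-fold, from 18.3 for UTP4 to 452 for NOP56. The counted transcript of UTP4 holds 3.75% of the canonical exon bases. In the 36 genes whose counted transcript follows the canonical one, the ranges were 129-fold and 16.6-fold. Across the 42 genes, the rank correlation (Spearman's rho) between nascent and steady-state levels was 0.661, and across all tested mRNAs it was 0.551. The 42 genes are not independent replicates and share the same libraries. The 45 matched genes took between 1.41% and 1.42% of the RNA-seq counts on TUs longer than 1000 bp and 0.380% of those of each PRO-seq library. NPM1 alone took between 0.357% and 0.362% in RNA-seq and 0.0327% and 0.0321% in PRO-seq.

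**Figure D2:**
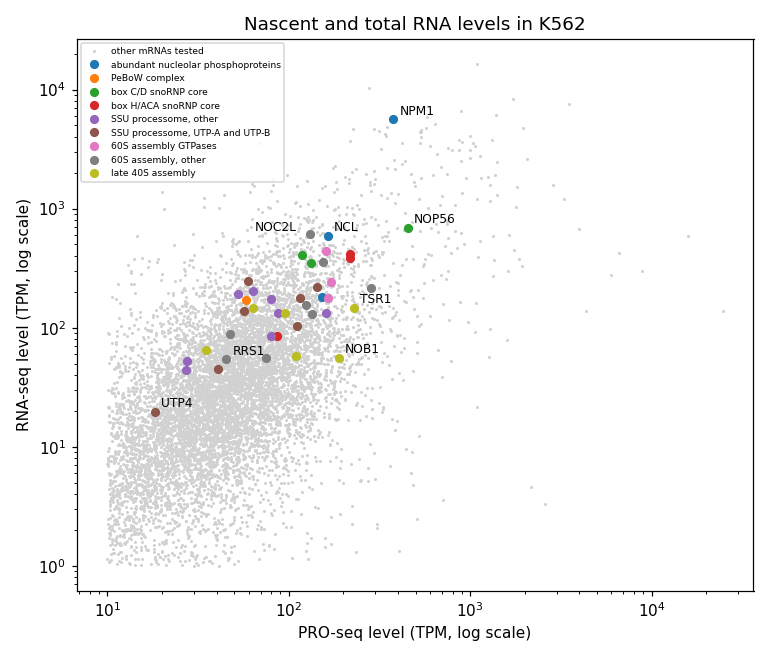
RNA-seq against PRO-seq level (TPM, both axes logarithmic, replicates summed) for the 42 genes, coloured by role, over the other mRNAs tested in grey. NPM1 is highest on the RNA-seq axis at 5639 TPM, NOP56 highest on the PRO-seq axis at 452 TPM, and UTP4 lowest on both. The counted transcript of UTP4 holds 3.75% of the canonical exon bases.

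Among the abundant nucleolar phosphoproteins, NPM1, NCL and NOLC1, all 3 mRNAs were called above the median mRNA, over a wide range. NPM1 (nucleophosmin, a histone and ribosome chaperone often mutated in leukemia) lies on chromosome 5 (GRCh37 chr5:170814120-170837887, plus strand), and its counted transcript has 12 exons. Its RNA-seq level was 5594, 5628, 5712 and 5648 TPM in replicates 1 to 4, and its PRO-seq level was 376.7 and 376.2 TPM. The 4 RNA-seq libraries differed little, and each was far above both PRO-seq libraries. NPM1 had a log2 relative half-life of 4.54 (SE 0.034, edgeR adjusted p = 5.09e-39), or 23.3 times the median mRNA, at percentile 99.5 of the mRNAs tested. The annotation holds 49 pseudogenes named after NPM1, and records of reads that map to several places made up 24.5% to 28.0% in the RNA-seq libraries, and 2.73% and 2.79% in PRO-seq. Their part in the value of NPM1 was not tested.

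NCL (nucleolin, which binds pre-rRNA) had 570.5, 610, 589 and 601 TPM in RNA-seq and 155 and 172.5 TPM in PRO-seq, which is a log2 relative half-life of 2.49 (SE 0.042, edgeR adjusted p = 1.72e-30). The counted transcript of NCL spans 28734 bp (GRCh37 chr2:232319619-232348352, minus strand), 2.62 times the canonical one, and covers 61.1% of its exon bases, so the lengths behind this value are those of a longer and different transcript. NOLC1 (Nopp140, a chaperone of snoRNPs) had 181, 180.9, 184 and 173 TPM in RNA-seq and 148 and 155 TPM in PRO-seq. Its PRO-seq level was near that of NCL and its RNA-seq level was far lower. NOLC1 was at a log2 relative half-life of 0.88 (SE 0.056, edgeR adjusted p = 1.78e-15).

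The box C/D snoRNP core adds 2'-O-methyl groups to rRNA. FBL (fibrillarin) is its methyltransferase, and NOP56 and NOP58 are the paralogous scaffolds that hold the guide RNA. All 3 were called above the median mRNA, with a median of 2.05. NOP56 had 688, 684, 682 and 693 TPM in RNA-seq and 440.2 and 463 TPM in PRO-seq. NOP58 had 329.8, 374, 329.7 and 371 TPM in RNA-seq and 133.5 and 130.1 TPM in PRO-seq. FBL had 412, 411.5, 387 and 414 TPM in RNA-seq and 107 and 129.9 TPM in PRO-seq. NOP56 was highest in every library of both assays, and the 3 genes lay closer together in RNA-seq, where highest and lowest differed 1.95-fold, than in PRO-seq, where they differed 3.82-fold. The log2 relative half-life was lowest for NOP56, at 1.24 (SE 0.046, edgeR adjusted p = 1.67e-21). It was 2.05 for NOP58 (SE 0.052) and 2.42 for FBL (SE 0.064), and neither of these overlapped NOP56 in any of the 8 library combinations.

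The box H/ACA snoRNP core turns uridines of rRNA into pseudouridines. DKC1 (dyskerin) is the pseudouridine synthase and is mutated in dyskeratosis congenita, and NHP2 and GAR1 are small proteins bound to it. DKC1 had 375, 384, 382 and 402 TPM in RNA-seq and 225 and 211 TPM in PRO-seq. NHP2 had 439.5, 400.5, 414 and 417 TPM in RNA-seq and 210.1 and 226 TPM in PRO-seq. GAR1 had 81.9, 83.6, 94.7 and 80.5 TPM in RNA-seq and 88.3 and 83.9 TPM in PRO-seq. DKC1 and NHP2 were thus close in both assays, and GAR1 lay below both in every library. The log2 relative half-life was 1.46 for DKC1 (SE 0.046) and 1.58 for NHP2 (SE 0.076), and their library combinations overlapped. That of GAR1 was 0.61 (SE 0.094, edgeR adjusted p = 4.66e-07), below every combination of the other two. Across this complex the RNA-seq levels differed 4.94-fold and the PRO-seq levels 2.53-fold, the opposite order to that of the box C/D core.

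**Figure D3:**
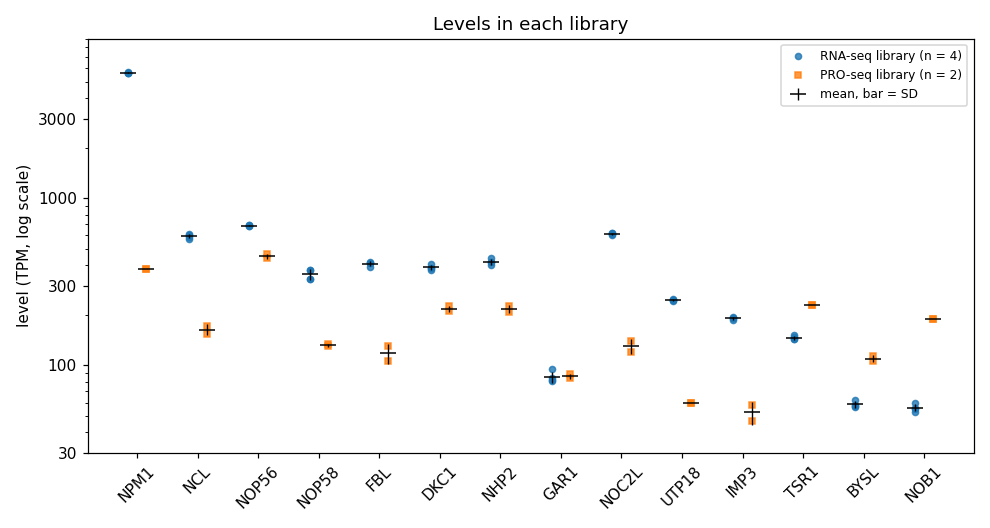
Level in each library (TPM, logarithmic axis) of 14 of the genes; circles are the 4 RNA-seq libraries, squares the 2 PRO-seq libraries, and black marks the mean with its SD. RNA-seq lies above PRO-seq for the first 11 genes except GAR1, where the assays overlap, and below it for TSR1, BYSL and NOB1.

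The UTP-A and UTP-B complexes are the first to bind the nascent 5' end of the rRNA precursor. All 7 of their subunits on the gene list were called above the median mRNA, with a median of 1.27. Subunits outside that list are not counted here. UTP18, of UTP-B, had 248, 249.6, 244 and 245.6 TPM in RNA-seq and 59.5 and 59.4 TPM in PRO-seq, a log2 relative half-life of 2.69 (SE 0.052, edgeR adjusted p = 5.62e-29). HEATR1, a large helical-repeat protein of UTP-A, was the lowest of the 7. It had 102.1, 100.04, 105.6 and 103.4 TPM in RNA-seq and 110.7 and 110.4 TPM in PRO-seq, a log2 relative half-life of 0.53 (SE 0.041, edgeR adjusted p = 1.91e-13). HEATR1 therefore had the higher nascent level of the pair and the lower steady-state level. The WD-repeat proteins WDR75 and WDR43 were at 1.93 and 1.27, UTP6 at 1.27 and UTP15 at 0.78. UTP4 was at 0.74, but its counted transcript holds 3.75% of the exon bases of the canonical one, and 68.2% of its PRO-seq span is shared with SNTB2 on the same strand, so its value describes that transcript.

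The 8 other SSU processome genes among the 47 that passed the thresholds were all called above the median mRNA, with a median of 1.45. IMP3, a partner of MPHOSPH10 in binding the U3 snoRNA, had 193, 192, 194 and 186 TPM in RNA-seq and 46.6 and 58.1 TPM in PRO-seq, a log2 relative half-life of 2.51 (SE 0.083, edgeR adjusted p = 7.47e-23). The span counted for IMP3 is 9622 bp and that of its canonical transcript 1132 bp. RRP9, the U3-specific protein, followed at 2.33 with PRO-seq levels of 49.1 and 77.1 TPM, which differed more between replicates than those of most of the genes. MPHOSPH10 and IMP4, of the same U3-bound trimer, were at 1.76 and 1.25, and their library combinations did not overlap. Those of IMP3 lay above both. The counted span of IMP3 is 8.5 times the canonical one, and 71.9% of its exon bases are shared with the opposite strand. Its value describes that transcript, so its difference from MPHOSPH10 and IMP4 is not read as one between the genes. NOC4L was at 1.57 and UTP20, the largest scaffold among them with 62 exons in its transcript, at 1.33. NAT10, which acetylates cytidines of 18S rRNA, was at 0.73. NOP14, which binds NOC4L, was lowest at 0.36 (SE 0.052, edgeR adjusted p = 1.47e-07), with 134.4, 131, 137 and 125.5 TPM in RNA-seq and 150.3 and 169 TPM in PRO-seq. NOP14 and NOC4L thus differed in the order opposite to their levels, since NOC4L had 27.0 and 28.1 TPM in PRO-seq.

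The late 40S assembly factors, which ride with the particle to the cytoplasm, included all 3 of the 42 genes that were not called above the median mRNA. Of the 6 genes of this group, 3 were above, 2 below and 1 without a call, with a median of 0.55. NOB1 is the endonuclease that makes the 3' end of 18S rRNA, and PNO1 (DIM2) is the protein that holds it at its site. NOB1 (GRCh37 chr16:69775774-69788829, minus strand) had 59.3, 55.1, 56.0 and 52.9 TPM in RNA-seq and 189 and 189.4 TPM in PRO-seq. Its PRO-seq libraries lay far above its RNA-seq libraries, and its log2 relative half-life was -1.12 (SE 0.068, edgeR adjusted p = 6.87e-16), 0.461 times the median mRNA. PNO1 had 143.4, 143.6, 149.9 and 147 TPM in RNA-seq and 60.4 and 66.7 TPM in PRO-seq. The partners thus lay at opposite ends of the group, with PNO1 at a log2 relative half-life of 1.83 (SE 0.065, edgeR adjusted p = 5.12e-22).

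BYSL (bystin, which escorts the pre-40S particle) had 56.1, 57.2, 58.2 and 62.3 TPM in RNA-seq and 113 and 106.1 TPM in PRO-seq. This put BYSL at a log2 relative half-life of -0.27 (SE 0.08, edgeR adjusted p = 0.0021). This edgeR call was lost without PRO-seq replicate 1, where the value was -0.21. The value turned to 0.39 without TPM thresholds at 1 summed count, where 0 is the median of a larger set of mRNAs. Over its alternatives the adjusted p of BYSL ran from 8.5e-06 to 1. TSR1, a GTPase-like protein on the same particle, had 143.1, 148, 143.5 and 151.5 TPM in RNA-seq and 229 and 230.3 TPM in PRO-seq. TSR1 was at -0.01 (SE 0.048, edgeR adjusted p = 0.825). It was called above the reference in 3 alternatives, each with 0 at the median of another set of TUs. These gave 0.65 (edgeR adjusted p = 3.7e-34) with at least 1 summed count and no TPM thresholds and 0.11 (edgeR adjusted p = 0.041) with at least 10. Against the median TU it was 0.22 (edgeR adjusted p = 0.00013). Over all its alternatives the adjusted p reached 1. RRP12, an export factor, was at 1.55. LTV1, which is released late from the particle, was at 1.11. For LTV1, 34.7% of the counted exon bases and 29.7% of the PRO-seq span are shared with other counted TUs of the same strand.

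PES1 was the one gene of the PeBoW complex (PES1, BOP1 and WDR12), which acts in making the 60S subunit, that could be compared. PES1 had 167, 174, 171 and 164 TPM in RNA-seq and 53.7 and 62.6 TPM in PRO-seq. PES1 was at a log2 relative half-life of 2.18 (SE 0.059, edgeR adjusted p = 3.55e-25), with a counted span 1.99 times that of the canonical transcript. WDR12 had 108.9, 113.5, 133 and 110.6 TPM in RNA-seq and 9.34 and 10.5 TPM in PRO-seq, and its summed PRO-seq level of 9.92 TPM was just under the threshold of 10. The counted transcript of WDR12 spans 115242 bp, 3.08 times the canonical span, and holds 3.36% of the canonical exon bases.

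The 3 nucleolar GTPases of 60S assembly had nearly the same nascent level and differed in steady-state RNA. PRO-seq levels were 175 and 166.5 TPM for GNL2, 169 and 154 TPM for GNL3 and 166 and 163 TPM for GTPBP4, a range of 1.06-fold between the summed levels. In RNA-seq, GNL3 (nucleostemin) had 427, 464, 421 and 461 TPM and GTPBP4 had 174, 179, 167 and 189 TPM, with GNL2 between them at 237 to 244.5 TPM. No RNA-seq library of any of the 3 genes overlapped those of another. The log2 relative half-life was 2.10 for GNL3 (SE 0.063), 1.13 for GNL2 (SE 0.045) and 0.75 for GTPBP4 (SE 0.046, edgeR adjusted p = 9.13e-16).

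All 8 other 60S assembly genes on the gene list that passed the thresholds were called above the median mRNA, with a median of 0.92. The further ribosome biogenesis genes described below are not counted among them. NOC2L, which works in pairs with other Noc proteins, had 623, 618, 612 and 602 TPM in RNA-seq and 121 and 140.6 TPM in PRO-seq. This gave a log2 relative half-life of 2.87 (SE 0.05, edgeR adjusted p = 3.39e-30), and the partner of NOC2L, NOC3L, was at 1.55. MRTO4, which holds the place of the stalk protein P0, was at 1.86, RRP1 at 0.95 and NIP7 at 0.60. NOP16 was at 0.23 (SE 0.077, edgeR adjusted p = 0.00717), with 215, 227, 200.4 and 204 TPM in RNA-seq and 284 and 282 TPM in PRO-seq. RRP1B, a paralog of RRP1, was lowest at 0.22 (SE 0.064, edgeR adjusted p = 0.00204), with 58.8, 50.6, 59.0 and 55.9 TPM in RNA-seq and 70.5 and 78.7 TPM in PRO-seq. The calls of RRP1B and of NOP16 were each lost when 1 PRO-seq library was left out, at edgeR adjusted p = 0.072 without replicate 1 and 0.069 without replicate 2. Over all alternatives the adjusted p ran from 3.4e-49 to 1 for RRP1B and from 1.7e-29 to 1 for NOP16, with no change of direction. RRS1, which brings the 5S particle to the pre-60S subunit and has a single exon, was at 0.90 (SE 0.326, edgeR adjusted p = 0.0116) on 6 and 11 PRO-seq counts, and its call was lost without PRO-seq replicate 1, at edgeR adjusted p = 0.22, within a range of 5.9e-07 to 0.59 over its alternatives.

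The other genes under the thresholds were EBNA1BP2 and NOP2. EBNA1BP2, a 60S assembly factor, had 228, 220.0, 187 and 225 TPM in RNA-seq and 1.10 and 1.31 TPM in PRO-seq. Its counted transcript spans 99327 bp, 12.3 times the canonical one, and holds 16.7% of the canonical exon bases. NOP2, a methyltransferase of 28S rRNA, had 8, 5, 6 and 8 counts in RNA-seq and 1 and 0 counts in PRO-seq, both under the thresholds, and 83.5% of its counted exon bases and 99.9% of its PRO-seq span are shared with another counted TU on the same strand. Nothing can be read from these counts about how much NOP2 the cells express.

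Other genes of ribosome production gave a scale for these values. Of 79 further ribosome biogenesis genes, 73 were tested, 49 were above the median mRNA and 18 below, and their median log2 relative half-life was 0.59. The lowest were UTP25 at -2.13, NLE1 at -1.94 and RRP8 at -1.70. The highest were WDR74 at 5.86, RUVBL2 at 3.44 and NOL7 at 2.94. WDR74 stood at 10306 TPM in RNA-seq, against a median of 70.7 TPM for its list. Overlap with other genes was not checked for these genes, so the value of WDR74 may not be that of its mRNA. Of the 15 genes of the RNA polymerase I machinery, 8 were above and 6 below, with a median of 0.17. Of 78 cytosolic ribosomal protein genes tested, 65 were above and 9 below, with a median of 2.40, and of 67 mitochondrial ribosomal protein genes 56 were above and 6 below, with a median of 1.58. The differences between these lists were not tested. The median RNA-seq level was 162 TPM for the 42 nucleolar factors and 1882 TPM for the cytosolic ribosomal proteins, against 31.2 TPM for all mRNAs tested.

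**Figure D4:**
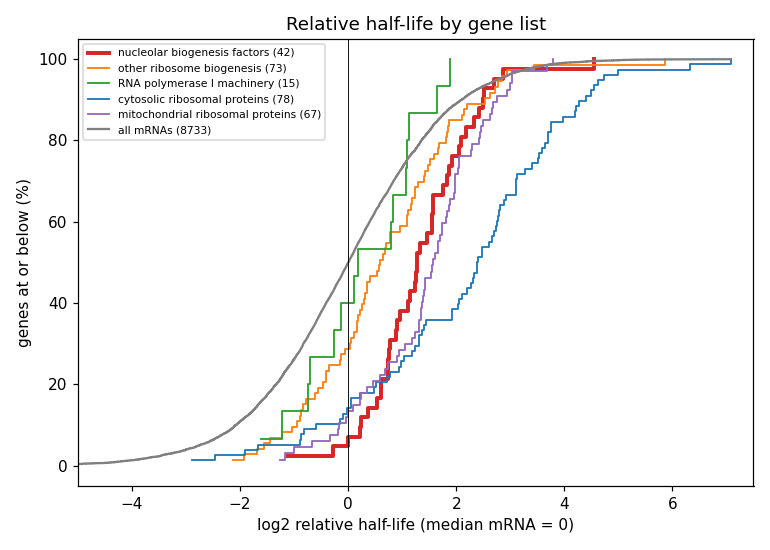
Cumulative share of genes (vertical axis, percent) at or below a log2 relative half-life (horizontal axis, median mRNA at 0; the axis starts at -5). The curve of the 42 nucleolar factors, with its median at 1.27, lies right of that of all mRNAs over most of its length and left of that of the cytosolic ribosomal proteins, with a median of 2.40, except at its lower end.

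Several of the genes carry other RNA genes in their introns. Same-strand snoRNA genes lie in introns of the counted transcript of 7 of the 45 matched genes. These hosts are NOP56 (SNORA51, SNORD86 and SNORD110), NOP58 (SNORD11, SNORD11B and SNORD70), NCL (SNORA75, SNORD20 and SNORD82), GNL3 (SNORD19, SNORD19B and SNORD69), WDR43 (SNORD53 and SNORD92), TSR1 (SNORD91A and SNORD91B) and DKC1 (SNORA36A). Genes of the box C/D and H/ACA cores are among these hosts. The 7 hosts had a median log2 relative half-life of 1.46 and a median PRO-seq level of 164 TPM, and the 35 tested genes without such a snoRNA had 1.25 and 86.7 TPM. The ranges overlapped, from -0.01 to 2.49 among hosts and from -1.12 to 4.54 among the others, and the difference was not tested. The 42 transcripts had a median of 13.5 exons, an exon length of 2364 bases and a span of 17994 bp, against 9 exons, 3064 bases and 29515 bp for all mRNAs tested.

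A sequence feature that the choice of genes did not use was counted in their promoters. The E-box CACGTG, which reads the same on both strands, is the sequence preferred by MYC paired with MAX and by other helix-loop-helix factors. RefSeq windows on GRCh38.p14, from 250 bases before to 50 after the annotated start, were found for 40 of the 47 genes, and 20 of these (50%) held at least 1 E-box. It was found for 13.3% of 7226 genes among the tested mRNAs with a window and 27.1% of the 70 further biogenesis genes. The share was 7.69% of 65 cytosolic ribosomal protein genes and 8.775% of all 27305 genes with a window. These differences were not tested. The E-box began within the first 50 bases after the start in 16 of the 40 genes (40%) and in 1.73% of the genes of the tested mRNAs. In the 50 bases before the start it began in 10.0% and 4.39%. The following sites, each with 10 bases on either side and the E-box in capitals, are shown because they lie closest to the start, and the number after each name is the position of the first base of the E-box counted from 1 at the start, with negative numbers before it.
GNL2, 4, chr1:37595919-37595944, minus strand: acgtcgtgcaCACGTGgtccggcgtg
WDR43, 4, chr2:28894660-28894685, plus strand: cacggacgaaCACGTGgctgcagcgg
UTP18, 5, chr17:51260540-51260565, plus strand: agcgaggttcCACGTGagcgcctgcg
FBL, 7, chr19:39846358-39846383, minus strand: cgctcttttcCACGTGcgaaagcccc
GNL3, 7, chr3:52686028-52686053, plus strand: cttcagttcaCACGTGgcgccagcgg
PNO1, 10, chr2:68157887-68157912, plus strand: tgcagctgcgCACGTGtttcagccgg
PES1, 14, chr22:30591882-30591907, minus strand: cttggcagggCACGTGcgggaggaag
RRP9, -5, chr3:51941894-51941919, minus strand: gttcagctgcCACGTGagttctgcgg
UTP20, -10, chr12:101280085-101280110, plus strand: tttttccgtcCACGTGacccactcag
The bases around the E-box differ from gene to gene, and the genes shown belong to the box C/D core, UTP-A, UTP-B, the rest of the SSU processome, late 40S assembly, PeBoW and the 60S GTPases.

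**Figure D5:**
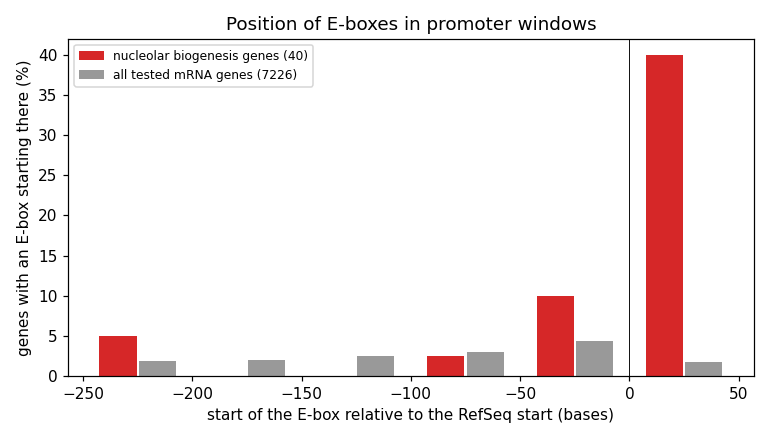
Share of genes (vertical axis, percent) whose promoter window holds an E-box starting in each 50-base bin (horizontal axis, bases from the RefSeq start), for 40 nucleolar factor genes in red and 7226 genes of the tested mRNAs in grey. The red bar reaches 40% in the bin after the start, where the grey bar is at 1.73%; an E-box must start early enough to end inside the window.

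A match in the window is not evidence of binding, and binding was not measured here. The 18 tested genes with an E-box had a median log2 relative half-life of 1.30 and a median PRO-seq level of 86.4 TPM, and the 18 with a window and no E-box had 1.26 and 149 TPM. PRO-seq levels ran from 18.3 to 170.5 TPM with an E-box and from 27.6 to 452 TPM without, so the groups overlapped and the genes with an E-box did not have the higher levels. MYC itself had a nascent level of 327 TPM and a steady-state level of 92.7 TPM, a log2 relative half-life of -1.18 (SE 0.062, edgeR adjusted p = 1.80e-17), and MAX had 52.2 and 87.8 TPM and was at 1.39 (SE 0.092). A start with a C followed by 4 pyrimidines, the form in which the mRNAs of ribosomal proteins begin, was found in windows of 4 of the 40 genes (FBL, NPM1, NOB1 and EBNA1BP2), or 10.0%, in 7.87% of the genes of the tested mRNAs and in 69.2% of the 65 cytosolic ribosomal protein genes.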

How the data were processed

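The authors deposited raw counts per transcript for each library, which the methods describe as Cutadapt trimming, HISAT2 alignment to GRCh38 and HTSeq counting on GENCODE, and PRO-seq counting skipped the first and last 500 bp of each TU. No source used here gives tool versions or the strand setting, so reads from a gene and an overlapping gene of the other strand may not have been told apart. The counted transcript is labelled as the longest.

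Transcripts were joined by identifier to GENCODE on GRCh37, and 37339 of 42371 (88.1%) matched. Records on no TU (66.5% to 68.6% in RNA-seq, 86.5% and 88.6% in PRO-seq) were left out. TPM used exon length for RNA-seq and span minus 1000 bp for PRO-seq. Each TU was tested against the median mRNA with edgeR 4.0.16 (R 4.3.3, quasi-likelihood, TMM, length offsets, Benjamini-Hochberg over all TUs), and DESeq2 1.42.0 was an alternative. In simulated data, a change of 1 (log2) was recovered in 88% of the 200 TUs that carried it, among 9931, with 7 false calls. All other simulated TUs had the same level in both assays, whereas 40.4% and 50% of the real TUs were called above and below. The error rate of the calls given here was therefore not measured. Canonical transcripts and snoRNA genes came from the same annotation and promoter windows from RefSeq. Python 3.11.15 was used for the other steps.

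The genes, role groups and lists were chosen with earlier results of these data known. Values in every library are given for the 5 highest and 5 lowest genes, the snoRNP cores, the phosphoproteins, PeBoW, the genes under the thresholds, and the highest and lowest of each role group. Alternatives covered the count model, normalization, thresholds, PRO-seq length, reference median, pairing and each library left out. Those on canonical transcripts and on overlap with other TUs were added after seeing the data. P-values measure the spread between libraries, which may be technical. RNA-seq replicates 1 and 3 were alike in the share of records mapping to several places (27.96% and 27.93%), as were 2 and 4 (24.94% and 24.47%). They were therefore summed in these pairs in 1 alternative. The study describes all libraries as made from cells of the same flask, so none is a separately grown culture. The SEs therefore do not cover differences between cultures. Whether the 4 RNA-seq libraries come from separate RNA preparations is not stated, and if they do not, the SEs are too small.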

Additional observations from a re-analysis of the deposited data

Results flagged for a closer look

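One value stood apart among the 4 RNA-seq libraries, out of 42 genes checked with Dixon's test, where chance flags about 1 in 20 groups. FBL was at 387 TPM in RNA-seq replicate 3 and between 411.5 and 414 TPM in the other 3, a gap of 0.898 of the range. Its log2 relative half-life stayed above the median mRNA in every library combination.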

How the results depend on the processing

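Of the alternatives for single genes, 647 values kept their direction and side of the threshold, 20 kept the direction and lost the call, and 4 turned. The number of genes above the median mRNA was 39 with DESeq2, with library totals, with the sums of RNA-seq replicates 1 and 3 and 2 and 4, and with the replicate block, and 39 without any 1 of the RNA-seq libraries. Without PRO-seq replicate 1 it was 38, of which 37 were among the 39 (RRP1B and RRS1 lost the call and WDR12 passed the threshold), and without replicate 2 it was 38, with NOP16 lost. RNA-seq and PRO-seq replicates 1 and 2 share only a number: the correlation of their differences was -0.0115 over 9843 TUs. The number below was 2 in the same settings except without PRO-seq replicate 1, where it was 1, and it was also 1 without TPM thresholds (at least 1 or at least 10 summed counts), with a 2-fold difference tested, and with the median of all TUs as reference. The median log2 relative half-life of 1.27 became 1.96 at 1 summed count, 1.41 at 10 summed counts, 1.23 at 20 and 2 TPM, 1.36 with 500 bp removed for PRO-seq, 1.5 against the median TU, 1.24 with a pseudocount of 1 TPM, 1.77 as CPM without length, and 1.39 in the 38 genes without same-strand overlap. It ranged from 1.26 to 1.33 with a library left out, and was 1.26 in the 36 genes whose counted transcript follows the canonical one. BYSL turned to 0.39 at 1 summed count. TSR1 turned to 0.65 at 1 summed count, 0.11 at 10 summed counts and 0.22 against the median TU. Each of these was a call above. In these settings 0 is the median of another set of mRNAs or TUs, so the reference moved as well. NOB1 and NPM1 also rose, from -1.12 and 4.54 in the main test to at most -0.458 and 5.2 over all alternatives. In the 22 genes with no overlap on either strand, 21 were above, 1 below and the median was 1.39; fewer genes were counted there. Low PRO-seq counts limit RRS1 most.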
